A study of Mus musculus with 9 samples.

Results

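The data describe 36 germ cell genes in RNA from cell populations that were sorted from the fetal mouse testis and from which germ cells were to be removed. The 36 genes were taken by symbol from a list of germ cell, pluripotency, piRNA pathway and meiosis genes drawn up with earlier results of these data known, and all 36 were found among the 38560 genes of the count table. The study set out to purify fetal Leydig cells and profile them beside Sertoli and interstitial cells. All 9 libraries came from Sf1-eGFP mice at 12.5 dpc (days post coitum), with gonads taken as testes where cords were seen, and no group differed in genotype, strain or age. The reporter is a green fluorescent protein driven by sequences of the gene for steroidogenic factor SF1, which is active in somatic cells of the gonad, and the sources used here give no gates for the 3 populations. An antibody to CD31 was used to take out germ and endothelial cells before RNA was made. Each of the 3 populations, Sertoli, Leydig and Interstitial, gave replicates A, B and C, and a sample pooled about 10 sorts done on different days, each of 4 to 10 litters. Besides A and B, the protocol lists their mixture, and replicate C was taken to be that mixture by elimination, since no label names it. Every main test therefore used A and B alone, 2 libraries per population. A fit of all 9 libraries, given as an alternative, counts C as a separate replicate, so its p-values can be too small.

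Germ cells reach the gonad as primordial germ cells that still carry pluripotency factors such as OCT4, NANOG and SOX2. In the fetal testis they become enclosed in cords by Sertoli cells, stay out of meiosis, and begin to prepare the piRNA pathway, in which PIWI proteins, Tudor domain proteins and helicases use small RNAs to silence transposons. Most of these genes are silent or nearly so in the somatic cells of the testis. In bulk RNA, fewer germ cells and less germ cell RNA per cell cannot be told apart.

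The libraries held 33123254 to 39244060 reads in genes, so that 3 reads correspond to 0.0764 to 0.0906 CPM (reads per 1000000 reads in genes). The 9 listed Sertoli cell markers were highest in Sertoli, where they summed to 3636 to 4003 CPM, against 1222 to 1267 in Leydig and 210.2 to 239 in Interstitial. The 6 fetal Leydig markers summed to 239.7 to 447 CPM in Leydig and 244 to 287 in Sertoli, with a median log2 difference of 0.17 between the populations, so the libraries labelled Leydig were not set apart from Sertoli by these markers. The 6 interstitial stroma markers summed to 1418 to 1561 CPM in Leydig, 1094 to 1131 in Interstitial and 375 to 409 in Sertoli. Of these 6, 4 were called higher in Leydig than in Interstitial and 0 lower, where 22.0% of all genes tested were called higher in Leydig. The markers thus set Leydig and Interstitial apart, but with the libraries labelled Interstitial the lower (median log2 difference -0.53, Interstitial against Leydig). Leydig replicates A and B also differed from each other more than the other pairs did in the germ cell genes, so the differences that rest on Leydig are given below also without A and without B where these shift them. Every p-value measures the spread between these sorted pools.

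Germ cell genes were detected in all 3 populations and were highest in Interstitial. Their summed level was 1703, 1917 and 1818 CPM in Interstitial replicates A, B and C, 131, 474 and 217 CPM in Leydig, and 215, 155 and 198 CPM in Sertoli. The exact 95% binomial intervals of these sums, which cover counting error only, ran from 127 to 135 CPM in Leydig A and from 467 to 482 CPM in Leydig B. The 3 Interstitial libraries lay far above the other 6, and the 3 Leydig libraries straddled the 3 Sertoli libraries.

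Of the 36 genes, 32 passed the filter on low counts, and Nanos2, Gtsf1, Stra8 and Dnmt3l did not. Against Leydig, 31 of the 32 were higher in Interstitial by edgeR's quasi-likelihood test with Benjamini-Hochberg adjustment over all 18048 genes tested (adjusted p under 0.05), where 23.2% of all genes tested were called in that direction. Their median difference was 2.49 on the log2 scale, against -0.01 over all genes tested. Against Sertoli, 30 of the 32 were higher in Interstitial with a median of 3.14, where 32.7% of all genes were called in that direction and the median over all genes was 0.04. None was called lower in Interstitial in either comparison. Without Leydig A the median difference between Interstitial and Leydig was 1.82, and without Leydig B it was 3.62, in each case over 35 members tested.

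Counted over all 9 libraries, 35 of the 36 genes were higher in every Interstitial library than in every Leydig library, the exception being Dnmt3l, and the same was true of 36.9% of all genes tested. For Sertoli the count was 34 of 36, without Dnmt3l and Rec8, where 49.2% of all genes tested met it. Counts out of 36, here and below, include the members that failed the low-count filter, while the shares cover genes that passed it.

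**Figure D1:**
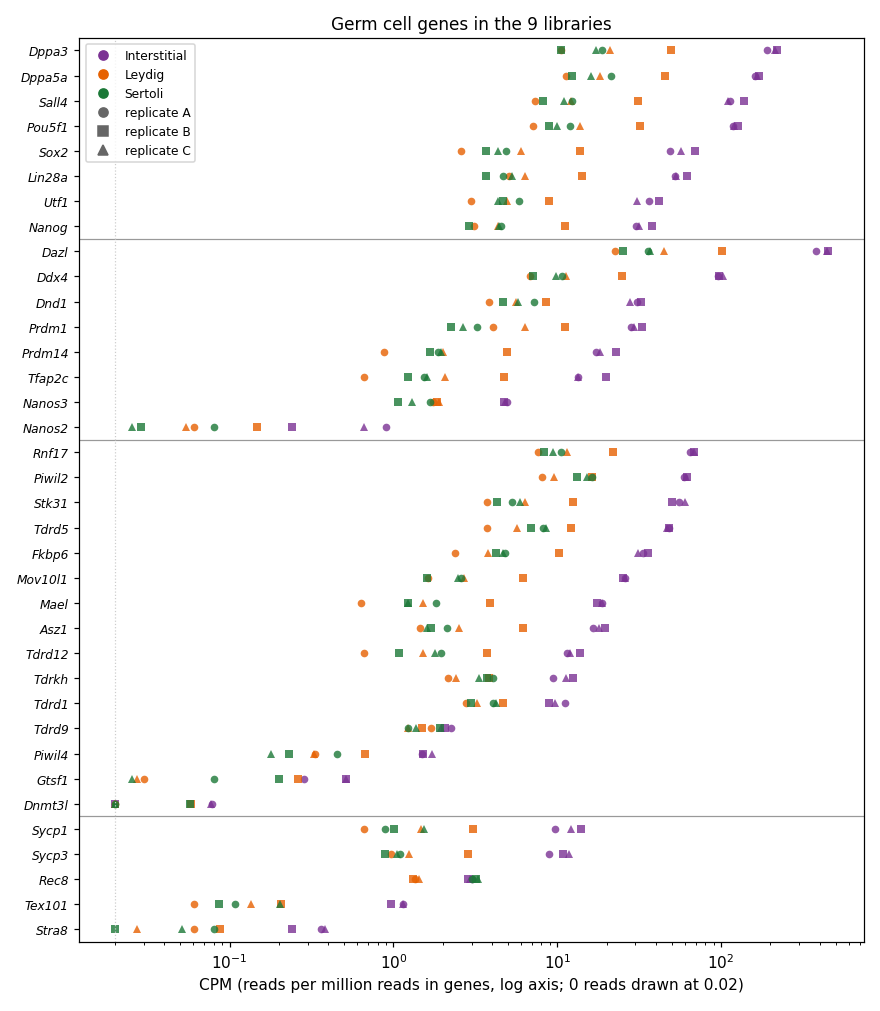
Level of each of the 36 germ cell genes (rows, grouped by role from pluripotency at the top to meiosis at the bottom) in CPM on a log axis, with 1 point per library, coloured by population and shaped by replicate, and with 0 reads drawn at 0.02. Interstitial points lie to the right for all but Dnmt3l and Rec8, Leydig B squares lie to the right of Leydig A circles in 34 of 36 rows, and Rec8 is the row where Sertoli and Interstitial coincide.

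Pluripotency genes formed the most uniform set, with 8 of 8 higher in Interstitial than in Leydig (median log2 difference 2.62, or 1.95 without Leydig A and 3.92 without Leydig B) and 8 of 8 higher than in Sertoli (3.42). Values below are CPM in replicates A, B and C in that order. Pou5f1 (ENSMUSG00000024406, chr17:35506018-35510772 on the plus strand, GRCm38/mm10), which encodes the core pluripotency factor OCT4, was at 118, 127 and 119 in Interstitial, 7.11, 31.8 and 13.7 in Leydig and 12.0, 8.84 and 9.99 in Sertoli. The Interstitial values did not overlap the others, while the Leydig values enclosed the 3 Sertoli values. The difference was 2.59 ± 0.49 (log2 ± standard error, adjusted p = 0.00307) against Leydig and 3.38 ± 0.52 (adjusted p = 0.000499) against Sertoli, by the same edgeR test. Against Leydig it was 1.89 without Leydig A and 4.05 without Leydig B. Nanog, its partner in the pluripotency network, was at 30.1, 37.7 and 31.5 in Interstitial, 3.10, 11.1 and 4.37 in Leydig and 4.53, 2.89 and 4.41 in Sertoli. Sox2, which binds DNA together with OCT4, was at 48.5, 68.8 and 57.3 in Interstitial, 2.59, 13.8 and 6.02 in Leydig and 4.88, 3.69 and 4.36 in Sertoli. Utf1, a chromatin protein of pluripotent cells, was at 36.4, 41.8 and 30.8 in Interstitial, 2.98, 8.94 and 4.97 in Leydig and 5.87, 4.69 and 4.33 in Sertoli. In all of these, Leydig B was the highest of the 6 libraries outside Interstitial.

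Dppa3, also called Stella, a protein that guards DNA methylation patterns in the germ line and early embryo, stood at 192, 219 and 213 CPM in Interstitial, 10.6, 49.5 and 21.1 in Leydig and 18.8, 10.6 and 17.2 in Sertoli. For Dppa5a, a KH domain RNA-binding protein of pluripotent and germ cells, the values were 161, 171 and 166 in Interstitial, 11.4, 45.3 and 18.2 in Leydig and 21.4, 12.2 and 16.0 in Sertoli. Both were among the 3 highest members per transcript length. Sall4, a zinc finger factor kept on in the germ line, had 114, 138 and 110.2 CPM in Interstitial, 7.29, 31.2 and 12.0 in Leydig and 12.4, 8.13 and 10.98 in Sertoli. Lin28a, the RNA-binding protein that blocks let-7 maturation, had 52.1, 61.7 and 53.2 in Interstitial, 5.06, 14.1 and 6.32 in Leydig and 4.66, 3.66 and 5.30 in Sertoli. Lin28a was the one pluripotency gene whose Leydig A value lay above those of Sertoli A and B, by a small margin. The differences of the pluripotency genes between Interstitial and Sertoli ran from 2.72 ± 0.36 (adjusted p = 0.000222) for Utf1 to 3.63 ± 0.57 (adjusted p = 0.000596) for Dppa3.

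The genes of germ cell specification and RNA binding had 7 of 7 tested members higher in Interstitial than in Leydig (median 2.54). Against Sertoli, 7 of 7 were higher (3.31). Against Leydig the median was 1.86 without Leydig A and 3.45 without Leydig B, over 8 members, as Nanos2 then passed the filter. Dazl (ENSMUSG00000010592, chr17:50279395-50293636 on the minus strand), an RNA-binding protein needed for germ cell development, had the highest CPM of all 36 genes, at 378, 448 and 443 in Interstitial, 22.6, 101 and 44.6 in Leydig and 36.0, 25.1 and 36.6 in Sertoli. Its difference from Interstitial was 2.68 ± 0.53 (adjusted p = 0.00375) for Leydig and 3.59 ± 0.56 (adjusted p = 0.00054) for Sertoli, the former being 1.97 without Leydig A and 4.13 without Leydig B. Ddx4 (ENSMUSG00000021758, chr13:112598333-112652475 on the minus strand), the VASA helicase of germ granules, was at 95.8, 96.8 and 103 in Interstitial, 6.81, 24.9 and 11.3 in Leydig and 10.7, 7.07 and 9.89 in Sertoli. As for Dazl, the lowest Interstitial value of Ddx4 was above the highest value of the other populations, which was Leydig B. Dnd1, an RNA-binding protein that keeps primordial germ cells alive, was at 30.7, 32.4 and 27.8 in Interstitial, 3.82, 8.56 and 5.62 in Leydig and 7.24, 4.69 and 5.73 in Sertoli.

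Prdm1, which encodes the repressor BLIMP1 that starts the germ cell fate and also acts in other cell types, was at 28.4, 32.9 and 29.5 in Interstitial, 4.07, 11.1 and 6.35 in Leydig and 3.22, 2.26 and 2.68 in Sertoli. Here all 3 Leydig libraries were above all 3 Sertoli libraries, which was seen for 1 other member, Nanos3, and for 36.4% of all genes tested. Prdm14, a factor that acts with BLIMP1 in specification, was at 17.2, 22.7 and 18.3 in Interstitial, 0.873, 4.94 and 2.01 in Leydig and 1.88, 1.66 and 1.96 in Sertoli. Tfap2c, the AP-2 gamma factor downstream of BLIMP1, was at 13.4, 19.9 and 13.5 in Interstitial, 0.662, 4.70 and 2.06 in Leydig and 1.53, 1.23 and 1.61 in Sertoli. Both had their lowest value of all 9 libraries in Leydig A. Nanos3, an RNA-binding protein that protects germ cells from death, did not reach 5 CPM and is named after its values were seen, at 4.95, 4.71 and 4.82 in Interstitial, 1.75, 1.84 and 1.90 in Leydig and 1.66, 1.06 and 1.30 in Sertoli. Its Leydig replicates were nearly equal, unlike those of most members. Nanos2, a marker of male germ cell commitment, stayed under 1 CPM in all libraries and was not tested in the main fit.

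In the piRNA pathway, 12 of 13 tested genes were higher in Interstitial than in Leydig (median 2.25) and 12 of 13 higher than in Sertoli (2.64). Tdrd9 was the exception in both. Against Leydig the median was 1.62 without Leydig A and 3.54 without Leydig B, over 14 members, as Gtsf1 then passed the filter. Without Leydig A, Piwil4 also missed the edgeR threshold (1.10, adjusted p = 0.0736). Piwil2, which encodes the PIWI protein MILI, was at 59.2, 62.0 and 61.0 CPM in Interstitial, 8.07, 16.3 and 9.55 in Leydig and 16.2, 13.2 and 15.2 in Sertoli. Its difference from Interstitial was 2.25 ± 0.25 (adjusted p = 0.000232) for Leydig and 1.87 ± 0.25 (adjusted p = 0.000217) for Sertoli, the former being 1.84 without Leydig A and 2.84 without Leydig B. Piwil4, which encodes the nuclear PIWI protein MIWI2, was at most 1.71 CPM in any library. Mov10l1, the helicase that feeds piRNA precursors to PIWI proteins, was at 25.9, 25.2 and 25.8 in Interstitial, 1.63, 6.19 and 2.71 in Leydig and 2.57, 1.60 and 2.47 in Sertoli. Mael, a germ granule protein of transposon silencing, was at 18.7, 17.6 and 18.7 in Interstitial, 0.632, 3.89 and 1.52 in Leydig and 1.82, 1.23 and 1.22 in Sertoli. Mael had the widest gap to Leydig among the members at 5 CPM or more, 2.93 ± 0.51 (adjusted p = 0.00204), which was 2.16 without Leydig A and 4.77 without Leydig B.

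The Tudor domain genes, whose proteins bind methylated PIWI tails, had gaps of very different sizes. Tdrd5 was at 48.1, 47.8 and 46.7 in Interstitial, 3.73, 12.1 and 5.67 in Leydig and 8.15, 6.90 and 8.49 in Sertoli. For Rnf17 the values were 64.7, 68.1 and 68.7 in Interstitial, 7.59, 21.9 and 11.5 in Leydig and 10.6, 8.30 and 9.45 in Sertoli. Stk31, which joins a Tudor domain to a kinase-like domain, had 55.6, 50.4 and 60.1 in Interstitial, 3.70, 12.5 and 6.32 in Leydig and 5.31, 4.29 and 5.89 in Sertoli. Their differences from Leydig, at 2.54 ± 0.38 for Tdrd5, 2.11 ± 0.36 for Rnf17 and 2.64 ± 0.39 for Stk31 (adjusted p = 0.000899, 0.00181 and 0.000889), were near the pluripotency median or somewhat below it. They were 1.93, 1.54 and 2.03 without Leydig A and 3.62, 3.06 and 3.77 without Leydig B. Tdrd12 was at 11.5, 13.8 and 12.0 in Interstitial, 0.662, 3.71 and 1.52 in Leydig and 1.96, 1.09 and 1.78 in Sertoli. Tdrd1, a partner of MILI, was at 11.1, 8.91 and 9.67 in Interstitial, 2.77, 4.68 and 3.26 in Leydig and 4.05, 2.98 and 4.26 in Sertoli. Tdrkh, which anchors PIWI proteins at mitochondria, was at 9.43, 12.5 and 11.4 in Interstitial, 2.17, 3.83 and 2.42 in Leydig and 4.05, 3.72 and 3.31 in Sertoli. Tdrd1 and Tdrkh had much smaller gaps, with 1.34 ± 0.25 (adjusted p = 0.00167) and 1.33 ± 0.25 (adjusted p = 0.00147) between Interstitial and Sertoli. Tdrd9 (ENSMUSG00000054003, chr12:111971559-112068854 on the plus strand), a Tudor domain helicase named after its values were seen, was at 2.25, 2.05 and 1.96 in Interstitial, 1.69, 1.49 and 1.22 in Leydig and 1.23, 1.92 and 1.38 in Sertoli. All 3 Interstitial libraries were the highest, but the differences of 0.38 ± 0.26 (adjusted p = 0.264) and 0.29 ± 0.25 (adjusted p = 0.349) did not pass the test. With all 9 libraries in the fit the first became 0.47 (edgeR adjusted p = 0.0446). That fit counts the mixture C as a separate replicate, so this value was not taken as a call.

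Asz1, a scaffold of germ granules at mitochondria, was at 16.6, 19.6 and 18.1 in Interstitial, 1.45, 6.14 and 2.52 in Leydig and 2.12, 1.69 and 1.61 in Sertoli. Fkbp6, a chaperone partner in piRNA loading, was at 33.5, 35.7 and 31.0 in Interstitial, 2.38, 10.2 and 3.80 in Leydig and 4.77, 4.21 and 4.64 in Sertoli. Both followed the pattern of Dazl. Gtsf1 and Dnmt3l, which act in the silencing step that sets DNA methylation, reached at most 0.513 and 0.0777 CPM and were too low to test in the main fit. Dnmt3l had 0 reads in Interstitial B, Leydig A, Leydig C, Sertoli A and Sertoli C, where 3 reads would have been at most 0.0906 CPM.

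Among the genes of meiosis and later germ cells, 4 of 4 tested were higher in Interstitial than in Leydig (median 2.45). Against Sertoli, 3 of 4 were higher in Interstitial (3.19). Against Leydig the median was 1.73 without Leydig A and 3.29 without Leydig B, over 5 members, as Stra8 then passed the filter. Sycp1, the transverse filament of the synaptonemal complex, was at 9.72, 14.0 and 12.2 in Interstitial, 0.662, 3.07 and 1.47 in Leydig and 0.884, 1.00 and 1.53 in Sertoli. Sycp3, a lateral element of that complex, was at 8.94, 10.9 and 11.8 in Interstitial, 0.964, 2.86 and 1.25 in Leydig and 1.10, 0.887 and 1.04 in Sertoli. Both were low but followed the other germ cell genes. Tex101, a surface protein of male germ cells, was at most 1.15 CPM. Stra8, the gate to meiosis under retinoic acid, was at most 0.383 CPM and had 0 reads in Sertoli B.

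Rec8 (ENSMUSG00000002324, chr14:55618037-55625395 on the plus strand), a cohesin subunit of meiotic chromosomes, departed from the set. It was at 3.01, 2.87 and 2.93 CPM in Interstitial, 1.35, 1.31 and 1.44 in Leydig and 3.03, 3.18 and 3.26 in Sertoli. All Sertoli libraries were above all Interstitial libraries and these above all Leydig libraries. The difference was 1.07 ± 0.19 (adjusted p = 0.00246) between Interstitial and Leydig, -0.25 ± 0.18 (adjusted p = 0.262) between Interstitial and Sertoli, and -1.32 ± 0.19 (adjusted p = 0.000777) between Leydig and Sertoli, where a negative value is lower in the first named. Unlike for most members, the difference from Interstitial hardly moved without Leydig A (1.10) or Leydig B (1.05).

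Ranked per transcript length, the Interstitial means of A and B were highest for Dppa5a at 268 RPKM (CPM per kilobase of exons), Dppa3 at 230.1, Dazl at 108, Pou5f1 at 54.6, Ddx4 at 31.96 and Utf1 at 31.9. The first 3 stood clear of the rest, while Ddx4 and Utf1 lay within the spread of their replicates. The highest member of the piRNA pathway was Fkbp6 at 19.7 RPKM, followed by Stk31 at 16.4. At the lower end stood Rec8 at 1.00, Tex101 at 0.636, Tdrd9 at 0.398 and Nanos2 at 0.367 RPKM. Below these were Gtsf1 at 0.287, Piwil4 at 0.280, Stra8 at 0.168 and Dnmt3l at 0.0130 RPKM. Lengths are those of all annotated exons, so a gene that uses a short isoform has an RPKM that is too low.

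Promoter sequences were compared because most members moved together over the libraries. Of the 36 genes, 28 had an entry in the RefSeq promoter table (GRCm38.p6, the build of mm10), which holds 300 bases from 250 before to 50 after each start. The E-box CACGTG, which reads the same on both strands, occurred in 10 of the 28 (35.7%), compared with 8.09% of the 27025 genes in the table. By role these were 7 of 13 piRNA pathway genes, 2 of 5 meiosis genes, 1 of 5 specification genes and 0 of 5 pluripotency genes. The E2F core TTCCCGC, searched on both strands, occurred in 3 of the 28 (10.7%, against 5.29% of all genes), namely Ddx4, Tdrd5 and Sycp3, and shared no base with an E-box. The octamer ATGCAAAT, also searched on both strands, occurred in 0 of the 28 (1.97% of all genes). A match is a description of letters and not a binding site. The stretches around the E-box, which lie before the start site, are shown 5′ to 3′ on the strand of the gene with the E-box in capitals, from 6 genes that were higher in Interstitial and from Tdrd9, which carries the motif too and was not called.
Tdrd1 (chr19:56826171-56826208, plus strand): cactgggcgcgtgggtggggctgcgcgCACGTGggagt
Mael (chr1:166238935-166238994, minus strand): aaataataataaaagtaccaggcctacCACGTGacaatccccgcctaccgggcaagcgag
Stk31 (chr6:49395457-49395516, plus strand): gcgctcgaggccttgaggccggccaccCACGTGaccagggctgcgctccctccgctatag
Fkbp6 (chr5:135350049-135350108, minus strand): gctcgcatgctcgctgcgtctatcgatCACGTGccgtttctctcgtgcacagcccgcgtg
Sycp1 (chr3:102936162-102936221, minus strand): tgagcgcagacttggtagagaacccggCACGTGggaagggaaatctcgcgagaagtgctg
Sycp3 (chr10:88459496-88459555, plus strand): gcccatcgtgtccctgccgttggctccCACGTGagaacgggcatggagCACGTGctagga
Tdrd9 (chr12:111971437-111971496, plus strand): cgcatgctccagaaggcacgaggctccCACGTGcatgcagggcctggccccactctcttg
Of the 10 genes with the E-box, 8 were higher in Interstitial than in both other populations, Tdrd9 was not called and Dnmt3l was too low to test. Of all 32 members tested, 31 were called higher in Interstitial than in Leydig and 30 higher than in Sertoli. Among all genes tested these shares were 23.2% and 32.7%. The count of 8 thus does not set the motif genes apart from the rest of the list. The Interstitial level of these 8 ranged from 1.84 RPKM for Tdrd1 to 31.96 RPKM for Ddx4.

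Expressed as a percent of the Interstitial mean of A and B, members were spread around a level that differed between libraries. Over the 27 members that reached 5 CPM in some library, the median was 6.99% in Leydig A, 26.0% in Leydig B and 11.9% in Leydig C. In Sertoli the median was 11.1% in A, 8.31% in B and 10.3% in C. The middle 50% of members lay between 5.52% and 9.43% in Leydig A, between 24.6% and 29.4% in Leydig B and between 6.999% and 12.1% in Sertoli B. These 27 were all at 5 CPM or more in Interstitial, the denominator. Over all 36 members the medians were 7.59%, 27.2% and 12.0% in Leydig A, B and C and 12.3%, 8.49% and 10.8% in Sertoli, and the middle 50% reached up to 12.4% in Leydig A and 34.1% in Leydig B. Even among the 27, Leydig A ran from 3.49% for Mael to 27.7% for Tdrd1.

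Several members lay higher in both populations. Tdrd1 stood at 37.2% of Interstitial in Leydig and 35.1% in Sertoli (means of A and B), Tdrkh at 27.3% and 35.4%, and Piwil2 at 20.1% and 24.3%. Nanos3 was at 37.1% and 28.2%, Tdrd9 at 73.7% and 73.1%, and Rec8 at 45.5% and 106%. At the other end, Dppa3 was at 14.6% in Leydig and 7.15% in Sertoli and Mael at 12.5% and 8.42%. By role, the median Sertoli level over all members was 8.31% of Interstitial for pluripotency genes, 9.09% for specification genes, 15.7% for piRNA pathway genes and 10.0% for meiosis genes. Prdm1 was high in Leydig alone, at 24.7% there and 8.94% in Sertoli. For Tdrd9, Tdrkh, Dnd1, Sycp3 and Dnmt3l, a protein-coding gene overlaps on the opposite strand, and no source used here states whether the counts were made by strand, so reads of the overlapping partner cannot be told apart from theirs.

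**Figure D2:**
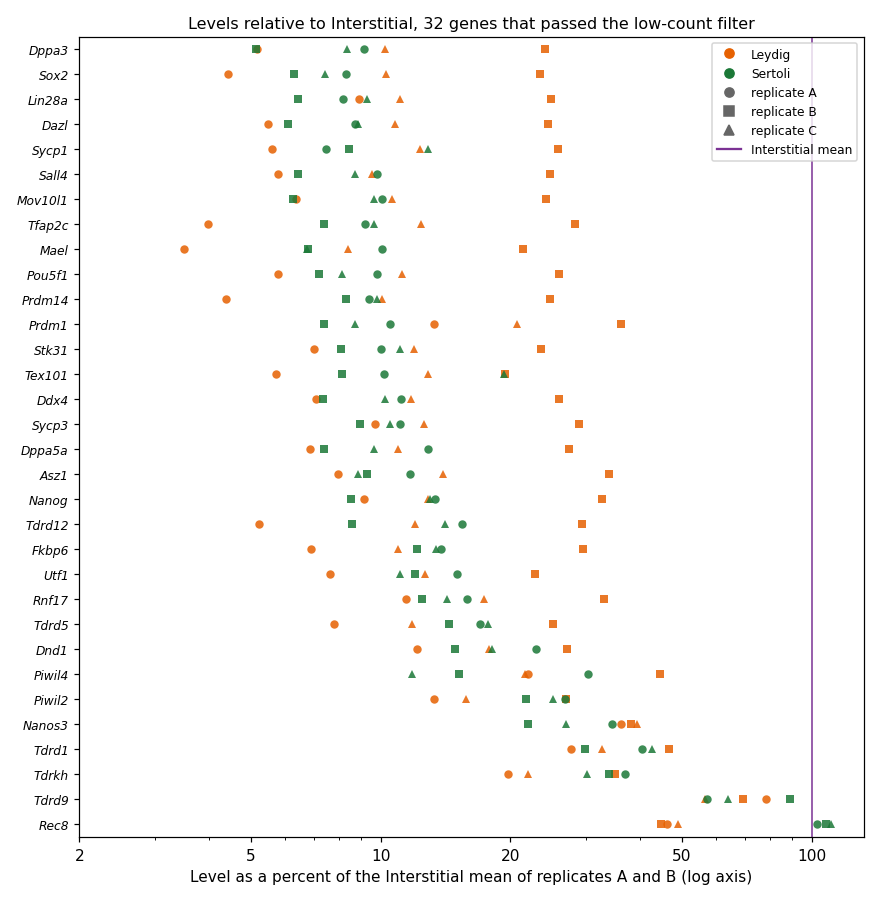
Level of the 32 germ cell genes that passed the low-count filter in each Leydig and Sertoli library, as a percent of the mean of Interstitial A and B (vertical line at 100%), on a log axis. Leydig A circles centre near 7%, Sertoli points near 10% and Leydig B squares near 26%, with Piwil2, Nanos3, Tdrd1, Tdrkh, Tdrd9 and Rec8 at the bottom lying higher.

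Between Leydig and Sertoli, 2 of 32 members were called, and they went opposite ways. Prdm1 was higher in Leydig by 1.36 ± 0.41 (adjusted p = 0.0293, edgeR) and Rec8 was higher in Sertoli. Of all genes tested, 16.9% were called higher in Leydig and 20.6% higher in Sertoli, or 37.5% in either direction. The median member difference was 0.63, against -0.01 for all genes, and Dazl at 0.91 ± 0.53 (adjusted p = 0.221), Dppa5a at 0.64 ± 0.51 (0.367), Fkbp6 at 0.38 ± 0.49 (0.588) and Sycp3 at 0.84 ± 0.45 (0.182) did not pass the edgeR test. A p that misses the threshold does not show that the levels were alike.

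This comparison turned on which Leydig library entered it. For 22 of the 36 members, Leydig A was below both Sertoli A and B while Leydig B was above both, where 5.29% of all genes tested had that arrangement. Without Leydig A, 24 members were called, 23 of them higher in Leydig, and the median was 1.24, where 15.1% of all genes were called higher in Leydig. Without Leydig B, 11 members were called, all higher in Sertoli, and the median was -0.55, where 15.1% of all genes were called higher in Sertoli. In these fits the lone Leydig library is assumed to vary like the other populations. Dazl moved from 1.61 (edgeR adjusted p = 3.58e-05) without Leydig A to -0.49 (0.0759) without Leydig B, and Fkbp6 from 1.07 (0.000165) to -0.97 (0.00188). Rec8 held at -1.35 (0.00273) and -1.24 (0.00462). Prdm1 stayed positive at 1.90 (2.63e-05) and 0.51 (0.114), and it also lost its call without either Sertoli library, at 1.65 (adjusted p = 0.0805) without A and 1.11 (0.18) without B. Leaving out the low-count filter gave 18 calls, 17 of them higher in Leydig, where 14.3% of all genes were called higher in Leydig.

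**Figure D3:**
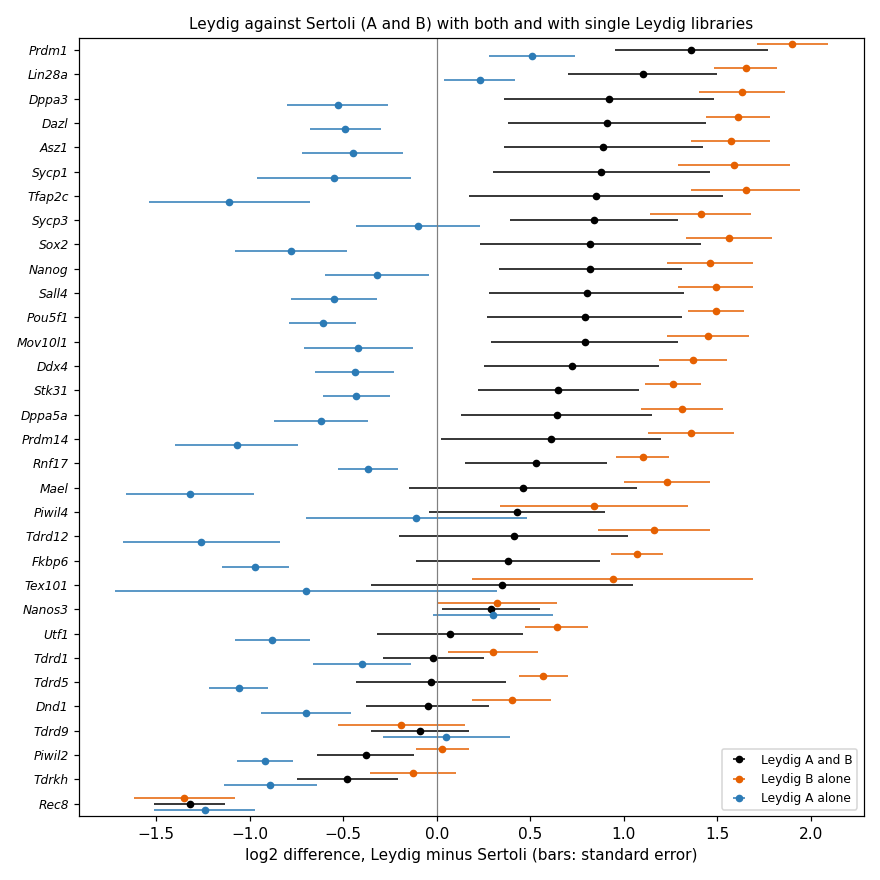
Difference between Leydig and Sertoli (log2, Leydig minus Sertoli, bars are standard errors) for the 32 germ cell genes tested, with both Leydig libraries in black, with Leydig B alone in orange and with Leydig A alone in blue. Most genes lie to the right of 0 with Leydig B alone and to the left with Leydig A alone, while Prdm1 stays to the right and Rec8 to the left in all 3 fits.

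The replicate pools differed in opposite directions in Leydig and Sertoli. Leydig B was above Leydig A in 34 of 36 members, all but Tdrd9 and Rec8, where 53.2% of all genes tested were higher in B. In 30 of the 36 it was at least 2-fold higher, a step taken by 5.05% of all genes tested. The 30 include Nanos2, Gtsf1 and Dnmt3l, which failed the low-count filter and had 5, 9 and 2 reads in Leydig B. Sertoli B was below Sertoli A in 31 of 36, where 43.5% of all genes tested were lower in B. Both held at once in 31 members, against 19.7% of all genes tested. In Interstitial, B was above A in 24 of 36 and at least 2-fold above in 0, against 49.9% and 1.73% of all genes tested. Over the 27 members at 5 CPM or more, the median ratio of B to A was 3.81 in Leydig, 0.757 in Sertoli and 1.15 in Interstitial, while over all genes tested that reached 5 CPM in any library it was 1.00, 1.02 and 0.999.

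Single ratios are given with exact 95% intervals that cover counting error only, since each compares 2 libraries with no replicate. Dazl had a B to A ratio of 4.48 (4.14 to 4.85) in Leydig, 0.698 (0.640 to 0.760) in Sertoli and 1.18 (1.16 to 1.21) in Interstitial. Dppa3 had 4.67 (4.16 to 5.25) in Leydig and 0.562 (0.494 to 0.639) in Sertoli. For both genes the Leydig and Sertoli intervals lay on opposite sides of 1. The largest Leydig ratio among members at 5 CPM or more was that of Tfap2c, 7.10 (4.53 to 11.6), and the smallest that of Tdrd1, 1.69 (1.30 to 2.21). Some members that stood high against Interstitial also had low ratios in Leydig, with 2.02 (1.74 to 2.35) for Piwil2, 1.77 (1.31 to 2.39) for Tdrkh, 1.05 (0.726 to 1.53) for Nanos3, 0.970 (0.627 to 1.501) for Rec8 and 0.884 (0.593 to 1.32) for Tdrd9. Others did not. Asz1 and Nanog, each at 20.9% of Interstitial in Leydig, had 4.25 (3.09 to 5.94) and 3.57 (2.86 to 4.48). Gtsf1, too low to test in the main fit, was at 36.7% with a ratio of 8.73 (1.21 to 383). A fit of pool B against pool A over all 3 populations called 0 of the 32 members by edgeR at an adjusted p under 0.05, where 0.903% of all genes were called. DESeq2 and limma voom also called 0. At an unadjusted p under 0.05 there were 3 members by edgeR, 0 by DESeq2 and 5 by limma voom. The share of all genes at an unadjusted p was not taken, so no excess can be read from these.

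**Figure D4:**
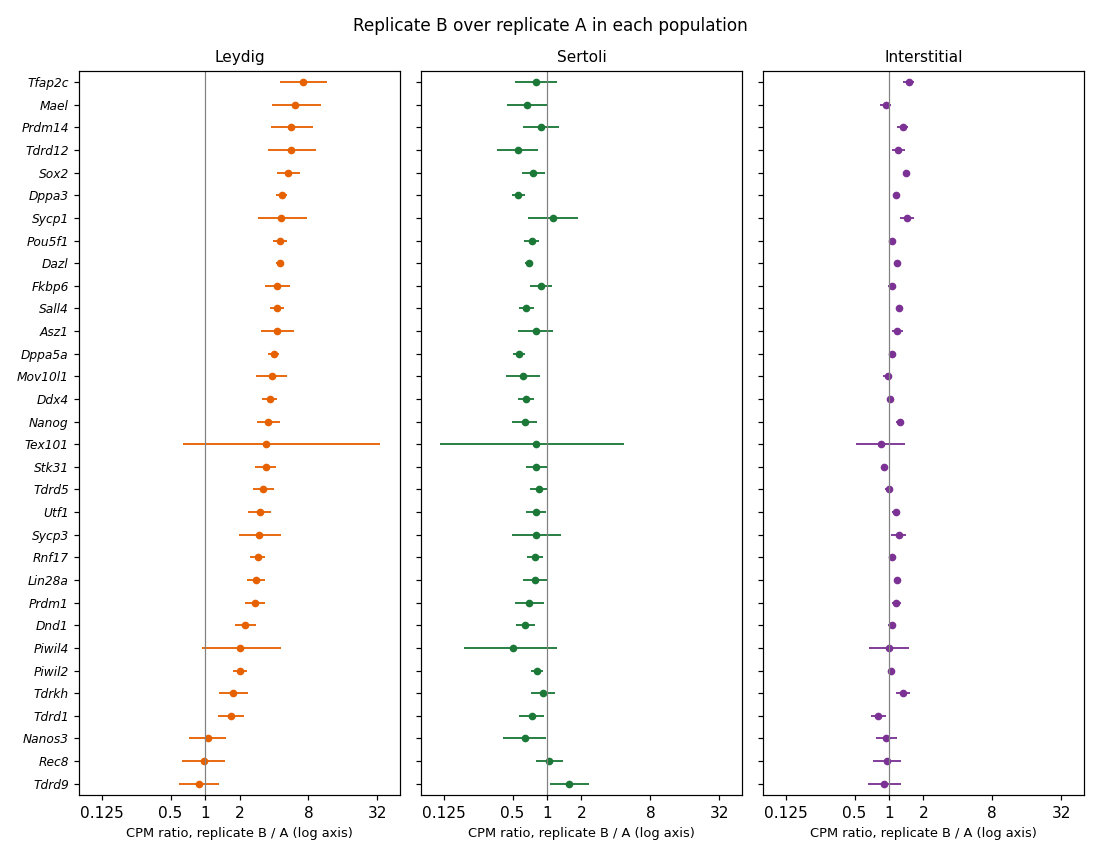
Ratio of replicate B to replicate A in CPM on a log axis for the 32 germ cell genes tested, in Leydig (left), Sertoli (middle) and Interstitial (right), with exact 95% intervals for counting error and a line at 1. Leydig ratios lie mostly between 2 and 8, Sertoli ratios mostly below 1 and Interstitial ratios near 1, and the bottom rows Nanos3, Rec8 and Tdrd9 lie near 1 in Leydig.

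Replicate C fell between A and B for 28 of 36 members in Leydig, where 48.9% of all genes tested did so. For the 19 members with a B to A ratio of at least 2 and at least 5 CPM in A or B, C lay at a median of 25.05% of the way from A to B (range 13.9% to 37.9%), and 74 other genes with such a ratio had a median of 23.3%. In Interstitial 23 of 36 members lay between (35.9% of all genes) and in Sertoli 18 of 36 (38.2%). Leydig C thus held germ cell RNA nearer to the level of A than to that of B.

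Markers of other cells moved between the Leydig pools as well. The 6 fetal Leydig markers summed to 447 CPM in A, 239.7 in B and 381 in C, so they were lower in B than in A while the germ cell sum was 131 in A and 474 in B. The 7 erythroid genes, mainly globins, summed to 72.8, 249.7 and 109.8 CPM in Leydig, 81.9, 205 and 106 in Sertoli and 8826 to 9819.9 in Interstitial. They were higher in B in both Leydig and Sertoli, while the germ cell sum was higher in B in Leydig and lower in B in Sertoli. The 7 macrophage genes summed to 12.1, 21.8 and 13.4 CPM in Leydig, 1.198 to 1.83 in Sertoli and 46.7 to 71.4 in Interstitial. The 12 endothelial genes summed to 290.1, 334 and 297 CPM in Leydig, 304 to 360.3 in Interstitial and 55.2 to 58.5 in Sertoli. These sums were near each other in Leydig and Interstitial, where the germ cell sums were far apart. Gene by gene they were less alike, with 6 of the 12 called higher in Leydig and 2 higher in Interstitial (median log2 difference -0.47, Interstitial against Leydig). Of all genes tested, 22.0% and 23.2% were called in those directions. The 6 mesonephric tubule genes summed to 105 to 122 CPM in Interstitial, 49.9, 55.6 and 55.6 in Leydig and 26.7 to 28.6 in Sertoli. Of these 6, 5 were called higher in Interstitial than in Leydig and 6 higher than in Sertoli, with medians of 3.13 and 3.29. Lhx1, a factor of kidney and mesonephric tubules that was picked after its values were seen, was at 22.3, 34.0 and 24.8 CPM in Interstitial, 0.903, 6.37 and 2.17 in Leydig and 1.66, 1.40 and 1.45 in Sertoli, an order over the Leydig pools like that of the germ cell genes. Within the mesonephric list, Cdh16, Pax2 and Pax8 were also lowest in Leydig A and highest in B. In Leydig A, B and C, Cdh16 was at 0.391, 0.906 and 0.597 CPM, Pax2 at 0.241, 0.351 and 0.271, and Pax8 at 5.36, 7.16 and 6.38. Cdh16 and Pax2 were thus low, and no counting interval was taken for these orders. Emx2, at 42.9, 40.8 and 46.1 CPM in Leydig A, B and C, did not have this order. Neither did Wnt9b, which was near the floor at 0.0602, 0.0584 and 0.0543. None of the listed markers was at 0 in all libraries. The part of these cells in the germ cell differences was not tested.

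The gene for CD31, the surface protein used for depletion, is itself expressed by germ and endothelial cells. Pecam1 was at 71.4, 75.7 and 70.1 CPM in Interstitial, 24.2, 36.4 and 24.3 in Leydig and 12.4, 8.62 and 10.1 in Sertoli. The 3 populations did not overlap, and Leydig B was again the highest of the 3 Leydig libraries. Fut4, which encodes an enzyme that makes the SSEA1 epitope of germ cells, did not follow them, at 6.06, 6.76 and 6.04 in Interstitial, 8.82, 7.89 and 8.09 in Leydig and 10.2, 10.0 and 9.78 in Sertoli.

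Another 41 germ cell genes outside the 36 gave these counts. Of 37 tested, 34 were higher in Interstitial than in Leydig (median 2.28) and 36 higher than in Sertoli (2.88), where 23.2% and 32.7% of all genes tested were called in those directions. Between Leydig and Sertoli, 6 were higher in Leydig and 1 higher in Sertoli, so the 6 of 37 were near the 16.9% called higher in Leydig among all genes. Dppa4 and Kit were picked from them as examples after their values were seen. Dppa4, a nuclear protein of pluripotent cells, was at 70.0, 77.5 and 72.5 CPM in Interstitial, 4.37, 19.3 and 7.98 in Leydig and 7.07, 4.89 and 7.36 in Sertoli. Kit, the receptor that guides germ cells and is also made in somatic cells, was at 114, 126 and 115 in Interstitial, 35.5, 53.2 and 39.5 in Leydig and 22.1, 20.4 and 21.3 in Sertoli. Both were called higher in Interstitial in both comparisons, and Kit was also called higher in Leydig than in Sertoli.

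The genes outside the 36 whose level profile was most like the summed members were compared over the 9 libraries by Pearson's r of log2(CPM + 0.5), among 12394 genes with at least 5 CPM in a library. The closest 15 had r from 0.998 to 0.9994, led by Trim71, Ap3b2, Smc1b, Dppa4 and Tdh, and 3 of them (Smc1b, Dppa4 and Esrp1) were on the list of other germ cell genes. Trim71, an RNA-binding ubiquitin ligase of early embryos, was at 120.2, 144 and 123 CPM in Interstitial, 7.83, 32.02 and 13.6 in Leydig and 13.4, 9.27 and 11.2 in Sertoli. Its Leydig B value again stood above the other 5 libraries of Leydig and Sertoli. Gdf3 and Lefty2, signalling proteins of the TGF-beta family, were also among the 15. Of the members, Ddx4, Sall4, Mov10l1 and Rnf17 had an r of 0.999 with the sum of the others, and the lowest were Rec8 at 0.309, Dnmt3l at 0.492 and Tdrd9 at 0.665. These values share the same libraries and depth and describe likeness only.

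The authors' deposited tables of their own comparisons list 28 of the members as higher in Interstitial than in Sertoli, among 3512 genes, and 29 as lower in Leydig than in Interstitial, among 1823 genes. Their table of Leydig against Sertoli holds 1932 genes and 2 of the members, Prdm1 at a log2 fold change of 1.23 and Rec8 at -1.26. In the authors' deposited table for Leydig against Interstitial, Dazl is at -3.14 and Rec8 at -1.07. Which libraries entered those tables is not given in the sources used here, and they hold only genes that passed the authors' selection. The share of all genes going the same way was not taken for them, so whether 28 or 29 members is many cannot be judged from these counts.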

How the data were processed

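RNA from 3 sorted populations of the fetal mouse testis was sequenced in 3 libraries each. The authors deposited raw read counts per gene for each of 4 lanes per library, made with TopHat2 2.0.6 and HTSeq on mm10, per the submitters' processing notes, and tables of log2 fold changes and average log2 expression, p-values and moderated t and log-odds scores from limma, per the file headers. No source used here states the annotation or the strandedness behind the counts. Lanes were summed, and 32.23% to 38.52% of all counted reads fell in no gene and were left out of library totals with the ambiguous 0.62% to 0.77%. Of 38560 Ensembl identifiers, 36722 had a symbol in GENCODE M21, which also gave lengths and positions. CPM are reads per 1000000 reads in genes, and RPKM divide them by kilobases of exons.

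Replicates A and B (6 libraries) were fitted together in R 4.3.3 with edgeR 4.0.16 (TMM, filterByExpr, glmQLFit, glmQLFTest) and Benjamini-Hochberg adjustment over 18048 genes at 0.05, after a check on simulated counts. Pools were compared in a fit with population as a term. Alternatives were RLE and plain library sizes, no filter and at least 1 CPM in 2 libraries, DESeq2 1.42.0, limma voom 3.58.1, all 9 libraries, the first 2 lanes, a replicate block and leaving out each library. All 9 values are given for members that reach 5 CPM in any library and for members called against their role group, and the rest by range, except Nanos3 and Tdrd9, which were named after their values were seen. The genes and lists were chosen with earlier results of these data known.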

Additional observations from a re-analysis of the deposited data

Results flagged for a closer look

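In 31 of the 36 germ cell genes replicate B was above replicate A in Leydig and below it in Sertoli, an arrangement found in 19.7% of all genes tested. The result stands out because the same pair of replicate letters moved in opposite directions in the 2 populations. Summed over the genes, A and B stood at 131 and 474 CPM in Leydig and at 215 and 155 CPM in Sertoli. With 1 library per letter and population, the difference between the populations was not tested, and the labels do not say whether the A pools of the 2 populations came from the same sorts.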

How the results depend on the processing

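The comparisons of Interstitial kept the direction of their medians under all alternatives. In the fits that left out no library, 30 to 33 members were called against Leydig and 29 to 32 against Sertoli. With RLE size factors, 22.3% and 31.6% of all genes were called higher in Interstitial than in Leydig and in Sertoli. With plain library sizes these shares were 26.8% and 41.7%. For the other alternatives the share of all genes was not taken. The size did not hold: leaving out 1 library gave medians of 1.82 (without Leydig A) to 3.62 (without Leydig B) against Leydig, and of 2.77 (without Sertoli B) to 3.40 (without Sertoli A) against Sertoli. Among 30 named genes per comparison, 449 of 450 alternative values kept their side of the threshold against Leydig, the other being Tdrd9, and 450 of 450 against Sertoli.

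The count for Leydig against Sertoli, 2 of 32, was not stable. It was 18 without the low-count filter, 1 with DESeq2, 1 with limma voom, 4 with all 9 libraries, and 1 to 24 when 1 library was left out, with the median going from -0.55 to 1.24. Without Leydig B the sign turned for Dazl (-0.49 in a range of -0.49 to 1.61), Dppa5a (-0.62, to 1.31), Fkbp6 (-0.97, to 1.07) and Sycp3 (-0.10, to 1.41). Prdm1 lost its call with DESeq2 (adjusted p = 0.0706), limma voom (0.0748), and without Leydig B, Sertoli A or Sertoli B. Of 90 such values over 6 genes, 74 kept their call and direction, and the cause of the others was not tested beyond the libraries left out.

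Pool B against pool A gave 3 calls without the low-count filter, where the share of all genes was not taken. In the main fit it gave 0, where 0.903% of all genes were called, and 0 in the other fits that left out no library. Its median of 0.39 ranged from -0.08 to 0.69 over left-out libraries, turning to -0.08 without Leydig A and -0.07 without Leydig B. With a replicate block, 31, 30 and 3 members were called in the 3 comparisons, where the share of all genes was not taken. The Leydig against Sertoli median was then 0.51. The letters did not clearly pair the libraries, since the differences of B and A over genes correlated between populations at 0.248, 0.10 and 0.018. Scaling by library size alone moved the median of all genes by 0.168 for Interstitial against Sertoli and 0.102 for Leydig against Sertoli, and the share of calls in favour of the first named went from 52.9% to 65.2% and from 45.1% to 58.8%. Calls near 3 reads per library are limited by depth.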
